A study of Canis lupus familiaris with 60 samples.

Results

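Keratins KRT1, KRT10 and KRT71 are structural proteins of the skin that were followed here across biopsies of dogs challenged with house dust mite. The members were all array probes whose identifier, with its version dropped, is a dog RefSeq transcript of 1 of these 3 genes. Of the 60068 probes on the array, 1 matched KRT1 (NM_001003392) and 1 matched KRT71 (NM_001197029). None of the 3 KRT10 transcripts in the RefSeq table was the identifier of a probe, so KRT10 was not analysed here and the suprabasal side of the comparison rests on KRT1. Both measured members passed the filter on dim spots, were well above background on all 59 arrays used, and were marked saturated on none of the arrays that carry this mark, which 2 arrays lack.

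Keratins are built as pairs of a type I and a type II chain that assemble into the intermediate filaments of epithelial cells. KRT1 (type II) and its partner KRT10 (type I) are made by keratinocytes once they leave the basal layer, and fill the suprabasal layers of the epidermis. KRT71 (type II) belongs to the inner root sheath, the layers that surround and guide the growing hair shaft, and variants of this gene are known for curly coats in dogs. Among genes with a symbol in the RefSeq annotation KRT1 lies between KRT2 and KRT77, and KRT71 between KRT5 and KRT74, while KRT10 lies between KRT12 and KRT28.

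The biopsies came from 12 Beagle dogs of 2 to 3 years of age, 6 of them sensitized on the skin to the mite *Dermatophagoides farinae* and 6 nonsensitized. Each dog gave 5 biopsies of shaved chest skin, 1 untreated at 0 hr and 1 each from a saline and an allergen (mite paste) patch site at 6 hr and at 24 hr. All patch sites were bandaged, so saline skin differs from untreated skin by the patch, the bandage and the time, and the sensitized dogs were 4 males and 2 females against 2 males and 4 females in the control group. The groups were 6 dogs each, except that the 24 hr allergen biopsy of sensitized dog 2839, whose RNA was degraded, was left out. Levels are given as log2 signals scaled with vsn, a variance-stabilizing method. A probe was called in a comparison when the limma adjusted p was under 0.05 and the difference at least 1.5-fold. In whole biopsies, fewer cells of a type and less RNA per cell cannot be told apart.

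Between 68.8% and 80.2% of spots were well above background on the arrays used. The biopsy left out had the lowest signal of all 60 for both genes, 14.5 for KRT1 and 5.88 for KRT71 on the scale fitted to all arrays, where the other 59 began at 15.93 and 6.79. The arrays lay on 8 slides that followed the time points in part. Untreated skin was on slides 6, 7 and 8, and 24 hr skin was on slides 1, 2 and 3 apart from 1 allergen biopsy on slide 8. Untreated and 24 hr skin of nonsensitized dogs shared no slide.

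KRT1 differed little between the groups. Its group means ran from 16.60 ± 0.25 (SD, n = 5) in 24 hr allergen skin of sensitized dogs to 17.13 in 6 hr skin of nonsensitized dogs, with an SD of 0.43 under saline and 0.47 under allergen (n = 6 each), a spread of 0.53. The order downward was 6 hr saline and 6 hr allergen skin of nonsensitized dogs, equal to 2 decimals, 24 hr allergen skin of nonsensitized and 6 hr saline skin of sensitized dogs, also equal, 6 hr allergen skin of sensitized dogs, untreated skin of nonsensitized dogs, 24 hr saline skin of sensitized and then of nonsensitized dogs, untreated skin of sensitized dogs, and 24 hr allergen skin of sensitized dogs. In none of the 9 pairs of neighbours in this order was the difference larger than the pooled SD. Sorting brings neighbours close together, so this says little of the whole spread. The spread of 0.53 was larger than the root mean square of the group SDs (0.35).

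KRT71 varied far more from dog to dog. Its SD within a group ran from 0.44 to 1.42, against 0.20 to 0.51 for KRT1. Over the 59 arrays 98.4% of the probes tested had a smaller SD than KRT71, and 76.8% a smaller SD than KRT1. The group means of KRT71 ran from 8.29 ± 0.81 (SD, n = 6) in 6 hr allergen skin of nonsensitized dogs to 9.71 ± 0.52 (SD, n = 6) in 24 hr saline skin of sensitized dogs. From high to low they were 24 hr saline skin of sensitized and of nonsensitized dogs, 6 hr saline and 24 hr allergen skin of sensitized dogs, 24 hr allergen skin of nonsensitized dogs, 6 hr allergen and untreated skin of sensitized dogs, and 6 hr saline, untreated and 6 hr allergen skin of nonsensitized dogs. Again none of the 9 neighbouring pairs differed by more than the pooled SD, with the same limit. The spread of the group means, 1.42, was larger than the root mean square of the group SDs (0.87).

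**Figure D1:**
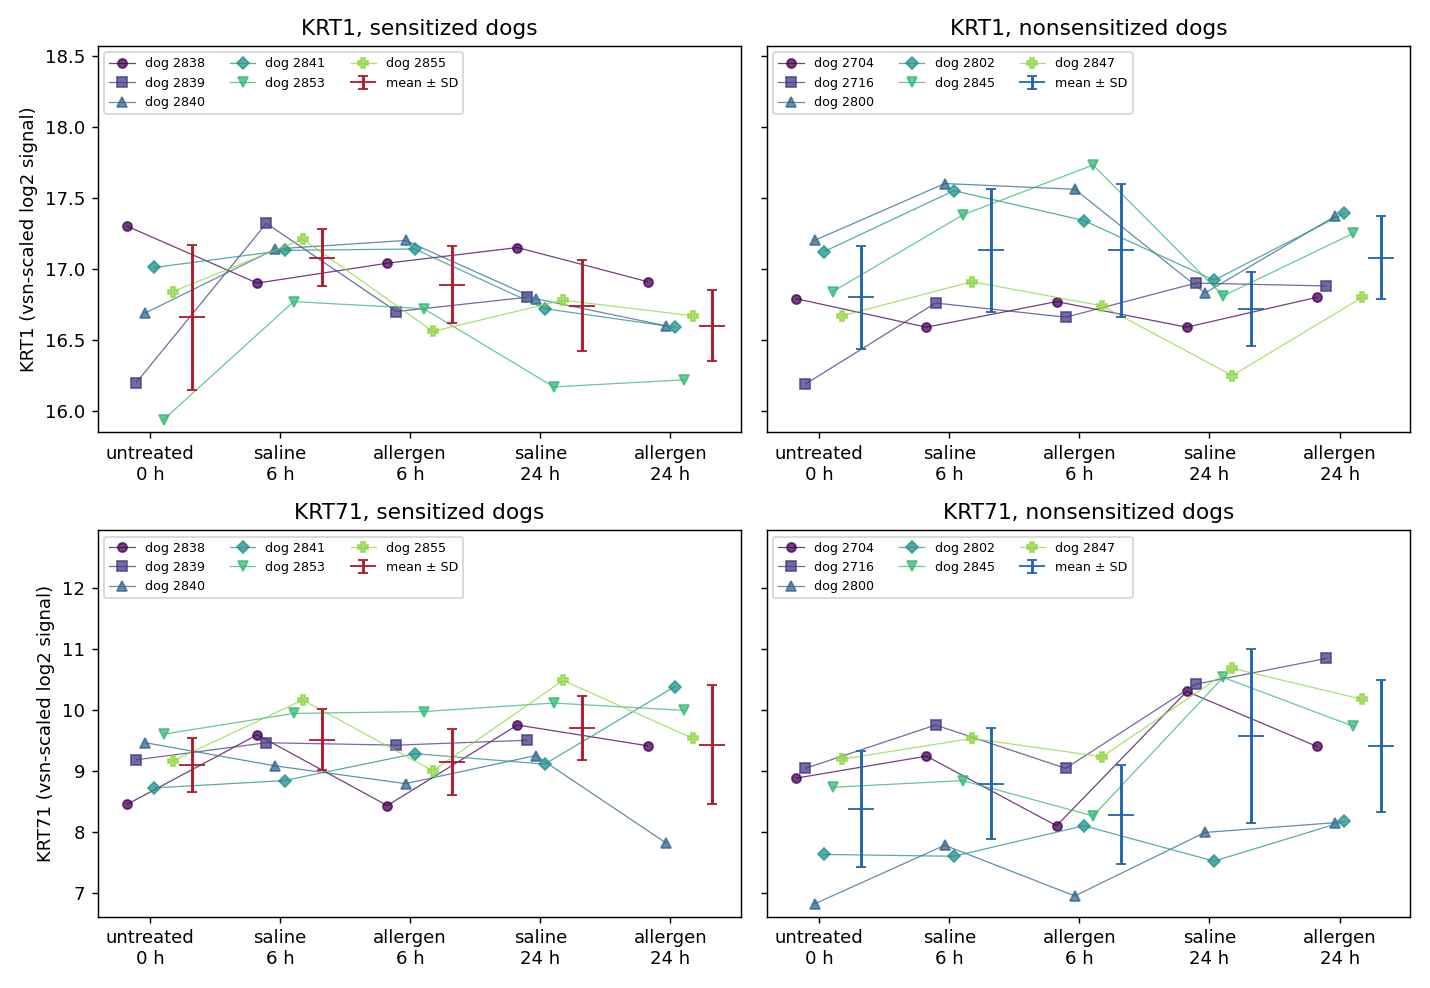
KRT1 (upper row) and KRT71 (lower row) as vsn-scaled log2 signals at the 5 sites of each dog, with sensitized dogs at the left and nonsensitized dogs at the right. Each symbol is 1 dog, and the bars give the group mean ± SD. The KRT71 lines of nonsensitized dogs 2800 and 2802 stay below those of the other 4 nonsensitized dogs at 0 hr and at 24 hr.

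Dogs differed from each other over their sites. Differences between dogs made up 75.4% of the within-group variance of KRT71 and 65.1% of that of KRT1. These shares are uncorrected, and means over few sites take up part of the variance even where dogs do not differ. The mean of KRT71 over the sites of a dog was lowest in nonsensitized dogs 2800 (7.55) and 2802 (7.81), and those of the other 10 dogs lay between 8.89 and 9.93. The sites of 1 dog also differed, by up to 2.27 for KRT71 (2845) and 1.12 for KRT1 (2839, with 4 sites). Dogs 2800 and 2802 had the highest KRT1 means, 17.31 and 17.26, while sensitized dog 2853 had the lowest KRT1 mean (16.36) and the highest KRT71 mean (9.93).

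The first comparison asked whether sensitized and nonsensitized dogs differed before any patch. In untreated skin KRT1 ranged from 15.94 through a median of 16.76 to 17.30 in sensitized dogs, and from 16.19 through 16.81 to 17.20 in nonsensitized dogs. The nonsensitized values lay wholly inside the sensitized range, and the difference, sensitized minus nonsensitized, was -0.14 (SE 0.20) with an interval of -0.54 to 0.26. KRT71 ranged from 8.46 through 9.18 to 9.61 in sensitized dogs and from 6.83 through 8.81 to 9.20 in nonsensitized dogs. The groups overlapped, although the 2 lowest dogs, 2800 at 6.83 and 2802 at 7.64, were both nonsensitized. The difference of 0.72 (SE 0.48, interval -0.26 to 1.69) was not called (limma, adjusted p = 1). Without dog 2800 it was 0.40, and with any other dog left out it lay between 0.57 and 0.88. Over all probes 0.00218% were called in this comparison. On slide 7, which held 2 sensitized and 5 nonsensitized untreated biopsies, the differences were -0.31 for KRT1 and 0.95 for KRT71, and on slide 8, with 3 and 1, they were -0.12 and 0.07.

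The next comparisons set the allergen site against the saline site. At 6 hr the 2 keratins were called in neither group of dogs. KRT1 moved by -0.18 (SE 0.20) in sensitized and 0.00 (SE 0.20) in nonsensitized dogs. In 3 of 6 sensitized dogs it was lower under allergen, and 2839 (-0.62) and 2855 (-0.65) lay below the other 4, which ran from -0.05 to 0.14. KRT71 was lower under allergen in 4 of 6 dogs of the sensitized and 5 of 6 of the nonsensitized group, with differences of -0.36 (SE 0.48) and -0.51 (SE 0.48). The adjusted p-values of both genes in both groups lay between 0.942 and 1, and 0.418% (sensitized) and 0.0348% (nonsensitized) of all probes were called. Within slides that held both sites, KRT1 differed by 0.01 and -0.34 on slides 5 and 6 in sensitized dogs and by -0.33 on slide 4 in nonsensitized dogs, and KRT71 by 0.05, -1.02 and 0.02. The differences between the 2 groups of dogs in this response, the interaction at 6 hr, were -0.19 (SE 0.28) for KRT1 and 0.14 (SE 0.68) for KRT71. No probe was called in that test (0%), with 525 of the 45972 at an unadjusted p under 0.05 in limma.

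At 24 hr KRT1 leaned in opposite directions in the 2 groups of dogs without being called. In nonsensitized dogs it was higher at the allergen site in 5 of 6 dogs, by 0.54 in 2800 and in 2847, 0.47 in 2802, 0.45 in 2845 and 0.21 in 2704, and was -0.03 in 2716. The difference in the fit was 0.36 (SE 0.20, interval -0.03 to 0.76; adjusted p = 0.504). In sensitized dogs it was lower in 4 of 5 dogs, by -0.24, -0.19, -0.13 and -0.11 in 2838, 2840, 2841 and 2855, with 0.05 in 2853, and the difference was -0.14 (SE 0.21, interval -0.55 to 0.28; adjusted p = 0.938). The interaction was -0.50 (SE 0.29, interval -1.08 to 0.07; adjusted p = 0.45). With the dog as a block it was -0.52 (SE 0.19; adjusted p = 0.0869) and was still not called. Of all probes, 0.274% were called in sensitized dogs, 0.766% in nonsensitized dogs and 0.935% in the interaction.

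Within slides the KRT1 difference at 24 hr in nonsensitized dogs was 0.42 on slide 1 (4 allergen against 3 saline arrays), 0.09 on slide 2 (1 against 2) and 0.47 on slide 3 (1 against 1). In sensitized dogs it was -0.21 on slide 2 (1 against 2) and 0.04 on slide 3 (3 against 3). These values set different dogs against each other in part, and several rest on 1 array.

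KRT71 was not called at 24 hr either. In nonsensitized dogs it was lower at the allergen site in 2704 (-0.90), 2845 (-0.80) and 2847 (-0.50) and higher in 2716 (0.42), 2800 (0.17) and 2802 (0.66). In sensitized dogs it ran from -1.43 in 2840 to 1.28 in 2841, with 4 of 5 lower. The differences were -0.16 (SE 0.48, interval -1.13 to 0.81) and -0.27 (SE 0.51, interval -1.29 to 0.75), and the interaction was -0.11 (SE 0.70, interval -1.52 to 1.30; adjusted p = 0.979). With 1 dog left out, the nonsensitized value ran from -0.33 (without 2802) to -0.01 (without 2704). Within slides KRT71 differed by -0.82, 0.26 and 0.66 on slides 1, 2 and 3 in nonsensitized dogs, and by 1.01 and -0.26 on slides 2 and 3 in sensitized dogs. The intervals of both groups reach below -1, so that a 2-fold fall of KRT71 lies inside them in the unpaired fit. With the dog as a block the differences were -0.16 (SE 0.27) and -0.27 (SE 0.28), and neither was called. The interaction turned to 0.72 with the slide as a fixed block, and was not called there either.

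**Figure D2:**
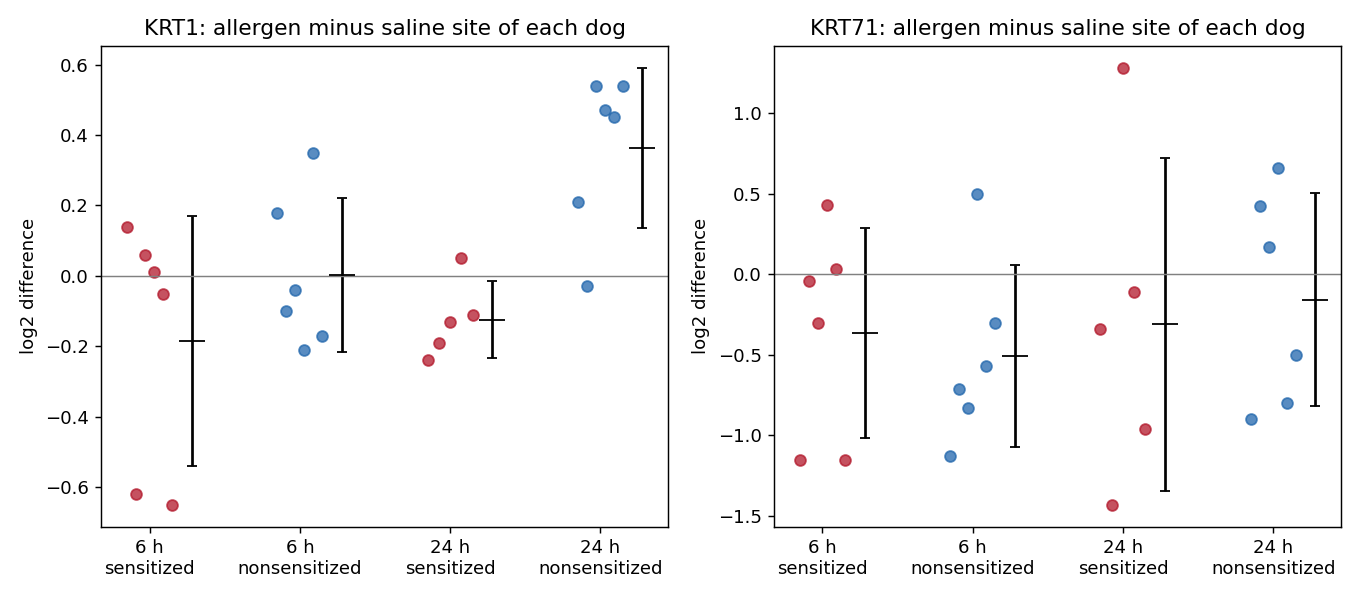
Difference between the allergen and the saline site of the same dog for KRT1 (left) and KRT71 (right), on the log2 scale, by time and group (red, sensitized; blue, nonsensitized). Each point is 1 dog and the bars give mean ± SD. The KRT1 points at 24 hr lie between -0.24 and 0.05 in sensitized dogs and between -0.03 and 0.54 in nonsensitized dogs.

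The suprabasal and the follicle keratin were also set against each other within dogs, as the change of KRT1 minus the change of KRT71 from the saline to the allergen site, a description with no test. This difference of changes was 0.18 ± 0.69 (SD, n = 6) at 6 hr and 0.19 ± 1.01 (SD, n = 5) at 24 hr in the sensitized group. The nonsensitized group gave 0.51 ± 0.71 (SD, n = 6) at 6 hr and 0.53 ± 0.72 (SD, n = 6) at 24 hr. All 4 of these means were smaller than the SD over dogs. Against untreated skin at 24 hr in nonsensitized dogs, the same difference of changes was -1.27 ± 0.73 (SD, n = 6) in saline and -0.75 ± 0.36 (SD, n = 6) in allergen skin, below 0 in 6 of 6 dogs each and larger than the SD, between arrays that shared no slide. In the sensitized group it was -0.53 ± 0.78 (SD, n = 6) and -0.50 ± 1.37 (SD, n = 5). At 6 hr against untreated skin it was -0.08 ± 0.45 in saline skin of nonsensitized dogs (SD, n = 6). In their allergen skin it was 0.43 ± 0.57 (SD, n = 6), above 0 in 5 of 6 dogs. Sensitized dogs gave 0.00 ± 0.93 in saline and 0.18 ± 0.58 in allergen skin at 6 hr (SD, n = 6 each). From the saline to the allergen site the 2 genes changed with the same sign in 3 of 6 and 3 of 5 sensitized dogs and in 3 of 6 and 2 of 6 nonsensitized dogs, at 6 hr and 24 hr respectively.

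Set against untreated skin, 1 value of the 16 for the 2 genes was called. KRT71 rose by 1.19 (SE 0.48, 2.28-fold, interval 0.22 to 2.16; limma adjusted p = 0.0346) in 24 hr saline skin of nonsensitized dogs. The 6 values there were 10.69 in 2847, 10.54 in 2845, 10.43 in 2716, 10.31 in 2704, 8.00 in 2800 and 7.53 in 2802. The first 4 lay above every untreated value of their group, which ended at 9.20, and the other 2 did not. Relative to their own untreated skin 5 of 6 dogs were higher, and 2802 was lower by -0.11. This comparison called 22.7% of all probes, so that a call in it is common. All 6 dogs were also higher in 24 hr allergen skin, by 1.03 (SE 0.48; adjusted p = 0.0777, not called), and with the dog as a block that value was called (SE 0.27; adjusted p = 0.00119). There 17.0% of probes were called.

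These 24 hr values changed with the handling of slides, and no slide held both kinds of skin of nonsensitized dogs. With the slide as a fixed block, which reaches across slides through other groups, the KRT71 values became -1.73 (SE 1.05, saline) and -2.05 (SE 1.06, allergen), and with it as a random block the saline value was 0.90 (adjusted p = 0.224). The saline call was also lost with all 60 arrays (1.20, adjusted p = 0.0642), with the scan session as a block (0.65, adjusted p = 0.671), and without dog 2704 (1.14), 2716 (1.15), 2845 (1.07) or 2847 (1.13), for which adjusted p lay between 0.059 and 0.103.

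In sensitized dogs the KRT71 values against untreated skin were 0.42 (6 hr saline), 0.05 (6 hr allergen), 0.60 (24 hr saline) and 0.33 (24 hr allergen), with adjusted p from 0.352 to 0.958. The corresponding shares of all probes called were 2.65%, 3.87%, 9.49% and 13.8%. At 6 hr in nonsensitized dogs, KRT71 differed from untreated skin by 0.41 in saline and -0.10 in allergen skin, where 2.26% and 1.61% of probes were called. KRT1 was between -0.08 and 0.42 in the 8 comparisons. Its highest value, 0.42 (SE 0.20) in 6 hr saline skin of sensitized dogs, was higher in 5 of 6 dogs and was under the fold required (1.34-fold; adjusted p = 0.16). With the dog as a block the SE was 0.13 and the limma adjusted p 0.0187, and the fold alone kept KRT1 from being called.

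**Figure D3:**
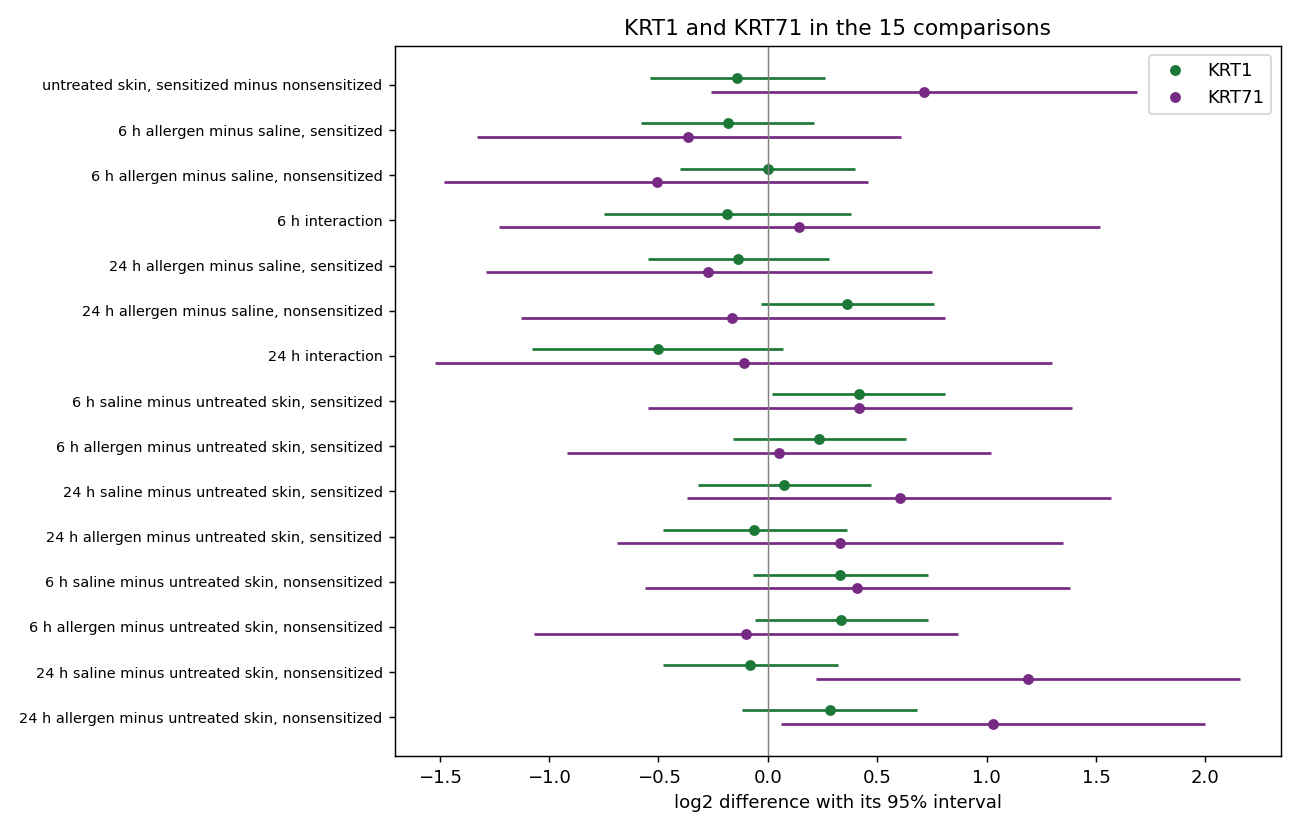
Log2 differences of KRT1 (green) and KRT71 (purple) with their 95% intervals from the limma fit, for the 15 comparisons named at the left (interaction: sensitized minus nonsensitized response to allergen over saline). The KRT71 intervals are wider throughout, and the 2 of them that lie wholly above 0 belong to 24 hr skin of nonsensitized dogs against untreated skin.

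The 2 keratins were also compared with each other across dogs. Over the 12 untreated biopsies KRT71 was lower where KRT1 was higher (Pearson r = -0.693, permutation p = 0.0122; Spearman rho = -0.867, permutation p = 0.0005, two-sided). Without the 2 dogs farthest from the median of KRT1, r was -0.68 (permutation p = 0.0355, n = 10). It was -0.831 in the 6 sensitized dogs (exact permutation p = 0.0458) and -0.80 in the 6 nonsensitized dogs (exact permutation p = 0.0611), with rho of -0.943 in each. On slide 7 alone, which held 7 of the biopsies, r was -0.756 (exact permutation p = 0.0546). The other slides held too few. Without the 2 dogs lowest in KRT71 it was -0.755 (permutation p = 0.0116, n = 10), a check added after the values were seen.

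The treated sites gave the same sign. Over the mean of the treated sites of each dog, chosen after the untreated values were seen, r was -0.783 (permutation p = 0.0026, n = 12) and rho was -0.734 (permutation p = 0.0089). Adjusted over these 2 relations, the p-values of r were 0.0122 for untreated skin and 0.0052 for treated skin, and those of rho 0.001 and 0.0089. Without the 2 dogs farthest from the median r was -0.665 (permutation p = 0.0342, n = 10) and rho was -0.576 (permutation p = 0.0887), so that the rank relation no longer passed. Without dogs 2800 and 2802 it was -0.539 (permutation p = 0.108, n = 10), so that over the treated sites the relation rests in part on these 2 dogs. The arrays differ but the dogs are the same in both, so that the treated means are no independent sample.

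The relation was between dogs and was not seen between the sites of a dog. Over the 59 arrays r was -0.51, and -0.56 after the group means were taken out. After the mean of each dog was taken out as well it was 0.00. By group, r was below 0 in all 10, from -0.24 in 24 hr skin of sensitized dogs to -0.88 in 6 hr saline skin of nonsensitized dogs. Among 892 other named genes KRT71 stood at rank 868 in its r with KRT1 and KRT1 at rank 855 in its r with KRT71, counted from the most alike, so that other genes were more opposed to each. These values over arrays are descriptions, since the 5 arrays of a dog share the animal.

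**Figure D4:**
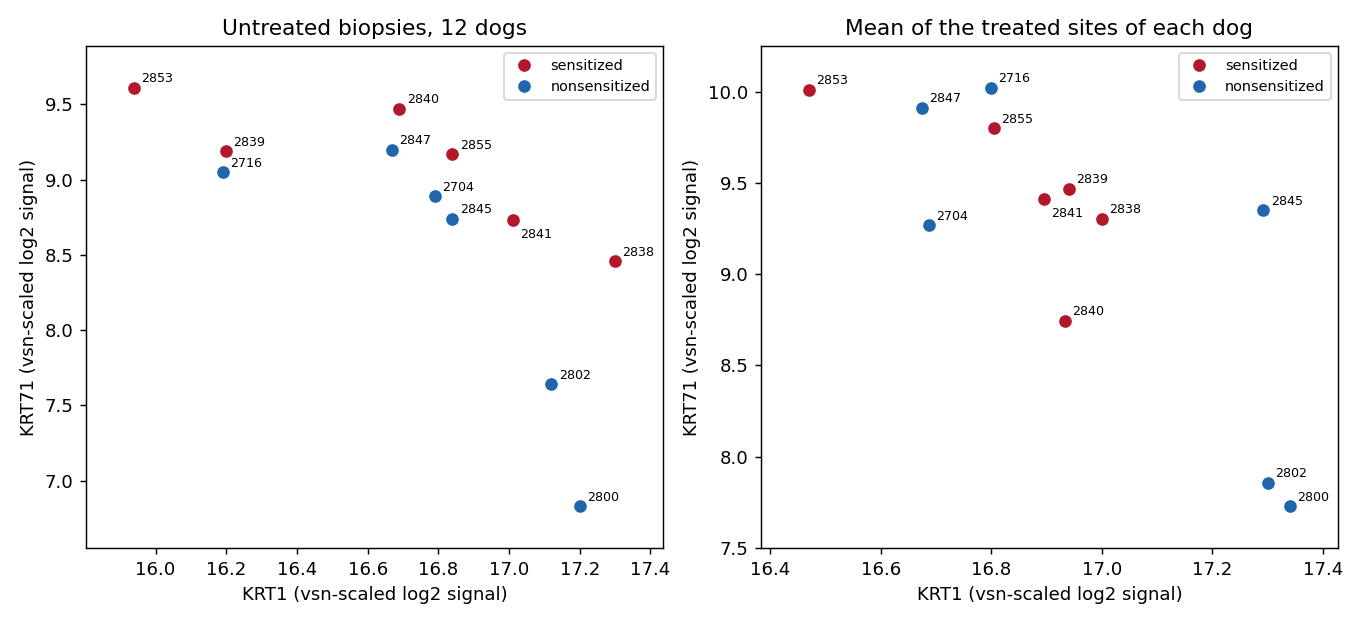
KRT71 against KRT1, both as vsn-scaled log2 signals, with 1 point per dog labelled by its number (red, sensitized; blue, nonsensitized), in untreated biopsies (left) and as the mean of the treated sites of each dog (right). KRT71 falls as KRT1 rises in both panels, with r of -0.693 and -0.783, and dogs 2800 and 2802 lie at the lower right in each.

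Other keratins on the array with a RefSeq name were KRT2 and KRT12, a keratin of the cornea. KRT2 is a type II keratin of the upper spinous and granular layers and the chromosomal neighbour of KRT1. Thus 4 of 59 named keratin genes were matched to a probe through RefSeq. Probes under other identifiers were not named here and may target further keratins. KRT2 was called in none of the 15 comparisons. Its values at 24 hr resembled those of KRT1, at 0.40 (SE 0.23) in nonsensitized and -0.15 (SE 0.24) in sensitized dogs, with an interaction of -0.54 (SE 0.33; adjusted p = 0.486). Against KRT71, KRT2 had r of -0.26 over the 59 arrays, and -0.33 after the group means were taken out. With the mean of each dog taken out as well it was 0.25. Over the means of the 12 dogs, r with KRT71 was -0.66 for KRT2 and -0.82 for KRT1. KRT12 was dim, and its brightest probe was well above background with all its spots on 34 of the 59 arrays.

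Among the 892 other named genes, the 5 whose levels followed KRT1 most closely over the 59 arrays were KRT2 (r = 0.78), SLC6A4, the serotonin transporter (0.75), CA6, a secreted carbonic anhydrase (0.73), NTF4, a neurotrophin (0.72) and PTGS1, a cyclooxygenase (0.70). Among the 3 most opposed were SLC1A3, a glutamate transporter (-0.69), and EDNRB, an endothelin receptor (-0.64). After group and dog were taken out, KRT2 still followed KRT1 (r = 0.67). Among the 5 that followed KRT71 most closely were CTSA, a lysosomal protease (0.74), ARSH, a sulfatase (0.74), BGN, a matrix proteoglycan (0.72), and FGF5, a growth factor that ends the growing phase of the hair cycle (0.69). KRT71 was opposed most by RABAC1 (-0.73), PTGDS, a prostaglandin D synthase (-0.68), and CYP3A12, a cytochrome P450 (-0.65). These are descriptions over arrays that share dogs, slides and time points.

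Markers of the compartments of skin were taken from lists of known genes, of which few carry a RefSeq name on this array. Of the cornified and granular layer list 4 of 23 genes were named through RefSeq. The paper gives values from these arrays for others of the list, such as LOR, FLG2 and SCEL, which were not named here. All 4 named genes followed KRT1 over the 59 arrays, KRTDAP with r of 0.69, TGM1 with 0.60, DSG1 with 0.57 and SPINK5 with 0.55. Against KRT71 the same genes had r between -0.63 and -0.20. In the 24 hr interaction TGM1, the transglutaminase that crosslinks the cornified envelope, was called at -0.59 (limma adjusted p = 0.033), and SPINK5 (-0.65, adjusted p = 0.112), DSG1 (-0.60, adjusted p = 0.101) and KRTDAP (-0.19, adjusted p = 0.606) were not called. This comparison called 0.935% of all probes, and its count of 430 dropped to 15 without dog 2855. The median of these 4 genes was -0.60 and that of all probes -0.004, beside -0.50 for KRT1. Lists of other cell types, with no call, had medians of 0.84 for mast cell genes, 0.48 for DES, -0.44 for melanocyte, -0.42 for PPARG, -0.37 for adipocyte, 0.25 for endothelial, 0.16 for leukocyte, 0.11 for basal keratinocyte, 0.04 for fibroblast and -0.01 for hair follicle genes, and their part in the KRT1 value was not tested. In untreated skin, in the 4 comparisons of allergen with saline and in the 6 hr interaction none of the 4 was called, with medians from -0.26 to 0.25.

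Of the hair follicle list only 2 of 15 genes were named through RefSeq, and its remaining inner root sheath and hair shaft genes were not analysed here. The 2 named genes were the transcription factors MSX2 and SOX9. Their r with KRT71 was 0.20 and -0.24. In 24 hr skin of nonsensitized dogs against untreated skin, where KRT71 was higher, both were called lower, with list medians of -0.98 (saline) and -0.99 (allergen) against 0.025 and 0.042 for all probes. These comparisons called 22.7% and 17.0% of all probes between arrays that shared no slide, and KRT71 itself was called in saline skin alone. Probes were named here through RefSeq accessions alone, and with the genes so named the follicle label of KRT71 was not checked against other follicle keratins, and the part of hair follicles in its values was not tested.

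The other lists held markers of further cell types. Through RefSeq they gave 2 of 9 basal keratinocyte genes, the sebaceous gland gene PPARG, and fibroblast genes (COL1A1, COL1A2 and DCN). They also gave endothelial genes (VWF and KDR), the muscle gene DES, adipocyte genes (ADIPOQ and LEP) and leukocyte genes (CD4, CD8A and CD163). The melanocyte and mast cell lists gave 4 genes each. None of these genes had a call in the 7 comparisons of untreated skin, of allergen with saline, and of their interactions. Leaving out the basal list, their r with KRT1 lay between -0.46 (TYRP1) and 0.34 (DCN), and with KRT71 between -0.52 (DCN) and 0.25 (MLANA). Against untreated skin at 24 hr in nonsensitized dogs, calls were also made lower for 3 of 4 melanocyte genes and higher for 3 of 4 mast cell genes in saline skin, in the comparison where KRT71 was called, along with 1 adipocyte gene lower and 1 gene in each direction among both endothelial and leukocyte genes. In that comparison 2 of 2 endothelial, 2 of 3 leukocyte and 1 of 2 adipocyte genes were thus called, beside the 22.7% of all probes. In 24 hr allergen skin of sensitized dogs, where KRT71 was not called, 3 of 4 mast cell genes were called higher, beside 13.8% of all probes. In that of nonsensitized dogs no mast cell gene and 1 of 4 melanocyte genes were called, beside 17.0%. The part of these cell types in the KRT71 result was not tested.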

How the data were processed

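The members and lists were chosen with earlier results of these data known. Total RNA of 60 biopsies was hybridized by the authors to 1-colour Agilent canine custom arrays and read with Feature Extraction 10.7.3.1. The deposited intensity values are processed signals, background-corrected by that software and not scaled between arrays, and the deposited series values hold the same signals. Spots marked as outliers were left out. The authors' filter was followed, which needs a signal well above background on 5 or more arrays of some group (47229 of 61657 spots, 45972 probes). Signals were scaled with vsn (reimplemented, Python 3.11.15) and averaged per probe. Identifiers were named through the RefSeq table of UU_Cfam_GSD_1.0 (1067 matched). The array was designed on another build, so no position is given. limma 3.58.1 fitted the 10 groups jointly and unpaired on 59 arrays, with Benjamini-Hochberg adjustment over all probes. Dog numbers pair biopsies of the same animal (median correlation of deviations 0.386 within and -0.044 between dogs), so the dog as a block was an alternative. Permutation tests used 100000 resamples, or all orders for fewer than 10 dogs. For each member the 5 genes most alike and the 3 most opposed by Pearson r were to be named, and some items are not reported here. Biopsies of 1 group came from separate dogs. Code was tested on simulated data. Precision is limited by the number of arrays.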

Additional observations from a re-analysis of the deposited data

How the results depend on the processing

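In untreated skin and in allergen against saline, interactions included, no value of KRT1 or KRT71 was called in limma under any of 13 other settings or with any of the 12 dogs left out (348 values), and of these 21 changed sign. The KRT1 difference at 6 hr in nonsensitized dogs (0.002) was -0.026 after quantile normalization, -0.040 unscaled, -0.039 with normexp, -0.003 with array weights, -0.021 without the filter, and -0.032 and -0.020 with the slide as a fixed and a random block, and from -0.067 to 0.044 with 1 dog left out. The KRT71 difference at 24 hr in sensitized dogs was 0.394 with the slide fixed and from -0.63 to 0.04 with 1 dog left out. The KRT71 interaction at 24 hr was 0.107 with array weights, 0.715 and 0.079 with the slide fixed and random, 0.152 with the scan session, a setting added after seeing the data, and from -0.468 to 0.201 with 1 dog left out. That at 6 hr ran from -0.015 to 0.345, and the untreated KRT1 difference from -0.266 to 0.005, with 1 dog left out.

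Against untreated skin 28 of 384 values changed sign. With the slide fixed, KRT71 in sensitized dogs was -1.792 (24 hr saline) and -1.398 (24 hr allergen), in nonsensitized dogs -1.727 and -2.048, and 0.476 in 6 hr allergen skin, and KRT1 in nonsensitized dogs was -0.038 (6 hr saline) and -0.070 (6 hr allergen). The last KRT71 value was 0.129 with the slide random, 0.108 with the scan session and from -0.213 to 0.034 with 1 dog left out. KRT71 in 6 hr allergen skin of sensitized dogs was -0.162 with array weights, -0.021 with the slide random and from -0.047 to 0.198 with 1 dog left out, and in 24 hr allergen skin it was -0.259 with all 60 arrays and from 0.016 (without 2841) to 0.804 (without 2840) with 1 dog left out. KRT1 in 24 hr allergen skin of sensitized dogs was 0.053 after quantile normalization, 0.274 unscaled, 0.022 with normexp, 0.011 with array weights, 0.035 without the filter and from -0.155 to 0.009 with 1 dog left out. In 24 hr saline skin it was -0.144 with the scan session and from -0.031 to 0.147 with 1 dog left out. In nonsensitized dogs it was 0.146 after quantile normalization, 0.521 unscaled, 0.100 with normexp and 0.050 without the filter in 24 hr saline skin, and -0.004 with the scan session in 24 hr allergen skin, where the unscaled value of 0.812 was called. KRT71 there was called at 1.571 unscaled, at 1.293 with array weights and at 1.029 with the dog as a replicate block. The block changed no other call. The cause was not tested.

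The Pearson correlation of KRT1 with KRT71 in untreated skin lost significance within slide 7, a setting added after seeing the data (r = -0.756, exact permutation p = 0.0546) and within nonsensitized dogs (r = -0.80, exact permutation p = 0.0611), where fewer dogs entered and rho still passed (-0.821, exact permutation p = 0.0341, and -0.943, exact permutation p = 0.0167). Pearson r held with the 75th percentile scaling (-0.697) and unscaled (-0.615).

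The 24 hr interaction called 430 probes, from 84 (unscaled) to 1625 (replicate block) under other settings and from 15 (without dog 2855) to 757 (without dog 2704) with 1 dog left out. Allergen against saline at 24 hr called 126 probes in sensitized dogs (37 to 848) and 352 in nonsensitized dogs (241 to 619), and at 6 hr 192 (12 to 408) and 16 (6 to 29). With 1 dog left out these counts ran from 30 (without 2855) to 153 and from 94 (without 2802) to 471 at 24 hr, and from 33 (without 2838) to 276 and from 8 (without 2802) to 22 at 6 hr. Against untreated skin in nonsensitized dogs, 24 hr saline skin called 10423 (1134 with the scan session to 23776 unscaled) and 24 hr allergen skin 7806 (4 to 21663), and in sensitized dogs 4361 (657 to 9779) and 6323 (3396 to 10566). At 6 hr the saline counts, 1217 in sensitized and 1040 in nonsensitized dogs, were 0 with the slide fixed and reached 3410 and 2678 with the 75th percentile scaling, and the allergen counts were 1781 (189 to 3686) and 740 (7 to 1263). With 1 dog left out the saline counts ran from 522 (without 2855) to 2509 (without 2838) in sensitized and from 559 (without 2716) to 1142 in nonsensitized dogs, and the allergen counts from 998 (without 2855) to 2908 (without 2839) and from 188 (without 2704) to 1055. Each member had 1 probe, so no other could be tried. The fit per time point gives no value against untreated skin, and the dog block none between untreated groups.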
